A study of Mus musculus with 3 samples.

Results

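The genes described here are 60 mouse genes of the cell cycle and mitosis, taken as the rows whose gene name matched a set list of symbols, of 47725 genes in each table. They fall into 4 groups by role: 12 act at the transition from G1 to S phase, 14 in DNA replication, 25 in G2 and mitosis, and 9 as inhibitors of the cycle. All 60 symbols were found, and 59 of them passed the filter on low values used for all genes, an average of 1 FPKM or more across the 3 libraries. FPKM is a read number scaled by the length of the gene and the size of the library. E2f2 did not pass, and its values are given as they stand.

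RNA was sequenced from 3 cultures, each from a different mouse embryonic stem cell line, with 1 library a line. The line called WT is wild type, BM is a Barhl1 mutant and BEM is a mutant of an E-box site named E3. An E-box is a short DNA motif that basic helix-loop-helix proteins bind, and Barhl1 is a homeobox transcription factor of hair cells, the sensory cells of the inner ear. The labels do not give the kind of either mutation, the number of clones or the number of culture wells. All 3 cultures held otic progenitors, precursors of inner ear cells, kept for 9 days on stromal cells from the embryonic chicken utricle that had been treated so that they no longer divide. Every culture was given EGF (25 ng/ml) with 1 µM of retinoic acid, per the labels' protocols. The labelled cell type is an embryonic stem cell line led towards hair cell-like cells. EGF, a mitogen, was thus present for all 3 lines, and the sources used here do not say how reads from chicken RNA were treated.

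The library totals were 21555823 (WT), 20111794 (BM) and 23813123 reads (BEM), as recovered from the FPKM values. Barhl1 stood at 126 FPKM for WT, 95.1 for BM and 0.0107 for BEM, and the labels do not say which level each mutation should give, so the libraries are named as labelled. Among 10 hair cell markers, 5 passed the filter, and these did not go one way. Myo7a stood at 0.704 FPKM for WT, 9.79 for BM and 9.83 for BEM, 13.9-fold higher in BM than in WT. Espn was 3.67-fold lower than WT in BM and 4.13-fold lower in BEM, and Myo6 was 1.79-fold and 1.70-fold lower. Atoh1, the hair cell fate factor, was measured at 270.2 (WT), 236 (BM) and 241 FPKM (BEM), while Pou4f3, a defining hair cell factor, had 1 read in each library. For Barhl1 and Atoh1 no whole reads could be recovered from the FPKM, so their values have no counting interval and are less certain. None of 6 pluripotency markers passed the filter. No difference has a replicate check, since each line gave 1 library. Each fold is given with a 95% interval (exact, Clopper-Pearson) that covers counting error only, and it compares these libraries, not the lines. Both mutants were set against the same WT library.

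The cell cycle is driven by cyclin-dependent kinases, which are switched on by cyclins made and destroyed in order. D cyclins with Cdk4 or Cdk6, then E cyclins with Cdk2, phosphorylate the retinoblastoma proteins and so free E2F factors, which turn on genes for DNA synthesis. Later, cyclins A and B with Cdk1 drive mitosis, whose genes are kept off in resting cells by the DREAM complex and turned on by Foxm1 and B-Myb through promoter elements named CHR. In the inner ear, cells that become hair cells leave the cycle, and the inhibitors of the Cip/Kip and Ink4 families keep them out of it.

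G2 and mitosis genes were higher in both mutant libraries than in WT, while G1/S genes as a group were not. The summed level of the 25 G2/M genes was 91.6 FPKM for WT, 307 for BM and 307 for BEM, 3.35 times the WT level in each. The 14 replication genes summed to 147, 224 and 227 FPKM, 1.53 and 1.55 times the WT level. The 12 G1/S genes summed to 259, 271 and 273 FPKM, 1.04 and 1.05 times the WT level. The 9 inhibitors summed to 814, 604 and 607 FPKM, 1.35-fold and 1.34-fold below the WT level, but as a group they did not go one way. Cdkn2a alone held 254, 37.2 and 38.4 FPKM of these sums, a larger drop than that of the sum in both mutants. By single genes, 4 of the 9 lay above the WT level and 5 below it in each mutant. The order of the groups was the same in both mutants. Because each library is a bulk sample, more cells in the cycle and more RNA of these genes in each cell cannot be told apart.

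**Figure D1:**
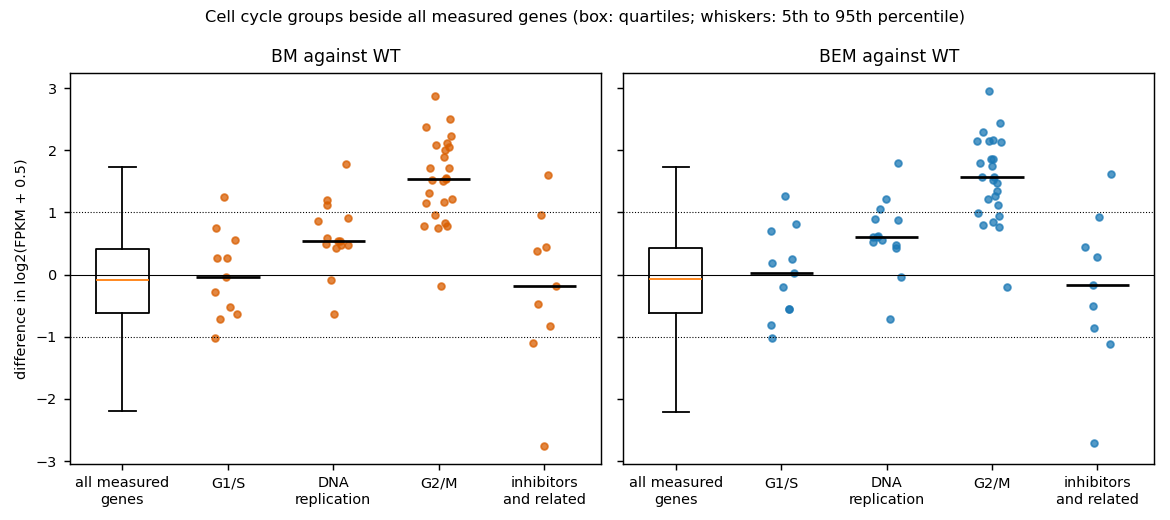
Log2 ratio to WT of every measured gene of the 4 groups, on the log2(FPKM + 0.5) scale, for BM and BEM, with the group median as a bar and a box for all 12875 measured genes (quartiles, with whiskers from the 5th to the 95th percentile). The G2/M points lie almost wholly above the WT level, with medians of 1.53 and 1.56, while the G1/S and inhibitor medians lie near 0.

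A gene was counted as higher or lower where it was at least 2-fold apart on the log2(FPKM + 0.5) scale, in which the added 0.5 pulls low genes towards no difference, so a low gene whose FPKM ratio is just over 2-fold, such as Rbl1, can fall short of it. Against WT, 24 of the 59 measured genes were higher in BM and 3 were lower. Over all 12875 measured genes the shares were 10.5% higher and 15.3% lower. In BEM the counts were again 24 higher and 3 lower, against 10.7% and 15.3% over all genes. The sets shared 23 of the higher genes and all 3 lower genes. Over all measured genes they shared 1279 of the 1356 that were higher in BM and 1826 of the 1970 that were lower, and both comparisons use the same WT library. The median log2 ratio was 1.53 in BM and 1.56 in BEM for G2/M, 0.54 and 0.61 for replication, -0.03 and 0.03 for G1/S (0.05 and 0.10 under median-of-ratios scaling), and -0.18 and -0.16 for the inhibitors, where the median over all measured genes was -0.08 and -0.07. G2/M genes made up 19 of the 24 higher genes in each mutant, replication genes 3, G1/S genes 1 and inhibitors 1. Nearest to the threshold from inside in BM were Cdc45 at a log2 ratio of 1.11 and Bub1b at 1.15, and from outside Rbl1 and Aurkb, both at 0.96. In BEM, Cdc45 at 1.06 and Aurkb at 1.12 lay just inside, and Bub1b at 1.00 and Mad2l1 at 0.95 just outside. On the lower side Ccne1 at -1.02 in both mutants and Cdkn2b at -1.11 in both lay just inside, and Ccng2 at -0.83 in BM and -0.85 in BEM just outside, followed by Ccnd3 at -0.71 and -0.81.

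**Figure D2:**
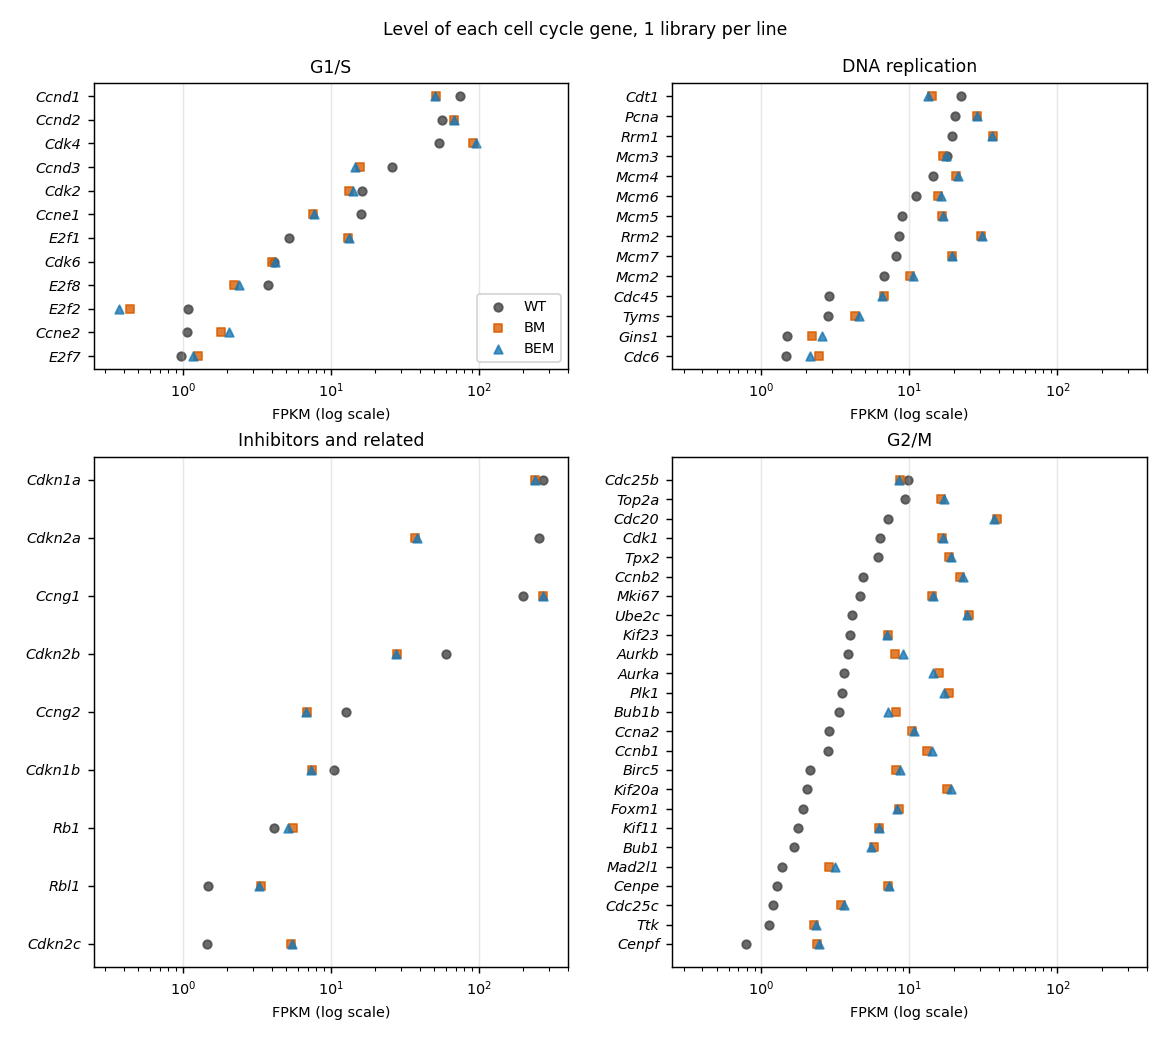
FPKM of each of the 60 genes in WT, BM and BEM on a log axis, in 4 panels by role; each point is 1 library. The WT points stand to the left of the mutant points through nearly all of the G2/M panel, and the BM and BEM points lie on or beside each other in all panels.

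Markers of other cell types differed in the same comparison, where 10.5% (BM) and 10.7% (BEM) of all measured genes were higher and 15.3% lower in each. The summed level of 15 macrophage markers was 19.6 FPKM for WT, 1897 for BM and 1944 for BEM, with 13 of the 14 measured ones higher in both mutants. The defining markers C1qa, Spi1 and Itgam were listed at 0 in WT. Mesenchyme markers summed to 2500.02, 9536 and 9446 FPKM, with 9 of 12 higher and 0 lower at the 2-fold threshold. Short of it, Pdgfra was 1.96-fold lower in both mutants as an FPKM ratio, and Col3a1 1.30-fold and 1.31-fold lower. Epithelial markers summed to 37.6, 5.39 and 5.16 FPKM, with all 3 measured of 6 lower, and the 7 neuronal markers to 4.21, 11.6 and 11.0 FPKM, with 2 of 3 measured higher. Snap25, a neuronal marker under the filter because its mean over the libraries is low, had 245 reads in WT, 0 in BM and 1 in BEM, so this list did not go one way. Which cells carried the cell cycle RNA is not shown by bulk libraries, and the part of these markers in the results was not tested.

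Genes of one phase of the cycle are known to share promoter elements. Windows of 300 bases around the start that RefSeq annotates (250 before, 50 after) were taken on GRCm38.p6. Of the 60 genes 48 had at least 1, in all 54 windows. Among the G2/M genes, Kif20a, Foxm1, Ccna2, Aurkb, Cdc25c and Tpx2 had no window. A gene was counted where any of its windows held the motif, while the share over all windows is per single window. Motifs were searched on both strands: the CHR as TTTGAA, with the variant form TTCGAA, the E2F element as TTGGCGC, with the variant form TTCCCGC, and the CCAAT box, the site of NF-Y, as CCAAT, whose reverse can overlap the first E2F form. A CHR form stood in 15 of 19 G2/M genes (78.9%), 3 of 12 replication genes (25.0%), 2 of 9 G1/S genes (22.2%) and 1 of 8 inhibitors (12.5%). It stood in 19.2% of all 32851 windows of that length. CCAAT stood in 17 of the 19 G2/M genes (89.5%) against 37.4% of all windows. An E2F form stood in 7 of 12 replication genes (58.3%), 4 of 9 G1/S genes (44.4%), 2 of 8 inhibitors (25.0%) and 3 of 19 G2/M genes (15.8%), against 6.81% of all windows. The G2/M group thus had the largest share of CHR matches of the 4 groups, and replication the largest share of E2F matches. Whether these motifs bear on the ratios to WT was not tested.

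The 150 bases before the start are shown for 5 G2/M genes that were higher in both mutants and hold a CHR, and for 2 replication genes that hold an E2F form and were less than 2-fold apart. They were picked on both motif and ratio, so they show no contrast between the motifs. Mcm7, with an E2F form and 2.37-fold higher in BM, and Cdc25b, with a CHR form and 1.14-fold lower in BM, are not shown. Capitals mark the CHR, which reads TTCAAA where it lies on the other strand, and both E2F forms. The windows are those of Ube2c (chr2:164769779-164769928, plus strand), Cdc20 (chr4:118437344-118437493, minus strand), Kif11 (chr19:37376232-37376381, plus strand), Cdk1 (chr10:69352913-69353062, minus strand), Mki67 (chr7:135716380-135716529, minus strand), Rrm1 (chr7:102441545-102441694, plus strand) and Mcm6 (chr1:128359706-128359855, minus strand), each written 5′ to 3′ on the strand of the gene.
Ube2c: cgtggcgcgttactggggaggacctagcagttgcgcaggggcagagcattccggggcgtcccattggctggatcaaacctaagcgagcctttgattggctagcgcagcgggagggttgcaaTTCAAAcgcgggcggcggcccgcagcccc
Cdc20: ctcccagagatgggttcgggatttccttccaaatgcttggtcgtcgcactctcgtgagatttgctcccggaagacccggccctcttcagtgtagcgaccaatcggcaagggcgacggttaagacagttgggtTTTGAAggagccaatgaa
Kif11: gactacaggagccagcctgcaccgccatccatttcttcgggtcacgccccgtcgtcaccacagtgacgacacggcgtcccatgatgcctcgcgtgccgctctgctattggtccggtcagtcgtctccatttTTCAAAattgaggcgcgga
Cdk1: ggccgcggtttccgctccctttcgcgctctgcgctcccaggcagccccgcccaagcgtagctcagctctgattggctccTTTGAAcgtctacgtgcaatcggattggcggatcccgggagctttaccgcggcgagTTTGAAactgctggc
Mki67: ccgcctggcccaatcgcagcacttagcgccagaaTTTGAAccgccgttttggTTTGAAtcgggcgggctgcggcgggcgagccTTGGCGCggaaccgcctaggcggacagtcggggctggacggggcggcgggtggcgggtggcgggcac
Rrm1: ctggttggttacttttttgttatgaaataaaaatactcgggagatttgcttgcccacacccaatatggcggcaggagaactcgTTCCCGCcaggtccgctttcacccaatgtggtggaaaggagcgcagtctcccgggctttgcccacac
Mcm6: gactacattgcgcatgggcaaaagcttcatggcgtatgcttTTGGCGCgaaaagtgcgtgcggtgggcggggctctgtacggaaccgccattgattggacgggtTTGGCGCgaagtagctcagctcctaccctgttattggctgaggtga

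In Ube2c, Cdc20 and Kif11 a single CHR lay close to the start, 29, 18 and 19 bases before it. Cdk1 held a pair, 71 and 15 bases before the start. Mki67 held a pair further out, at 116 and 98 bases, with an E2F form at 67 bases. Rrm1 held 1 E2F form at 67 bases, and Mcm6 held a pair at 109 and 46 bases. The 15 G2/M genes with a CHR form had a median log2 ratio of BM to WT of 1.51, and the 4 without one (Birc5, Ccnb1, Cenpe and Mad2l1) had 1.88. The 7 replication genes with an E2F form had a median of 0.58 and the 5 without one 0.55. A match is a description of these letters, not evidence of a bound site.

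**Figure D3:**
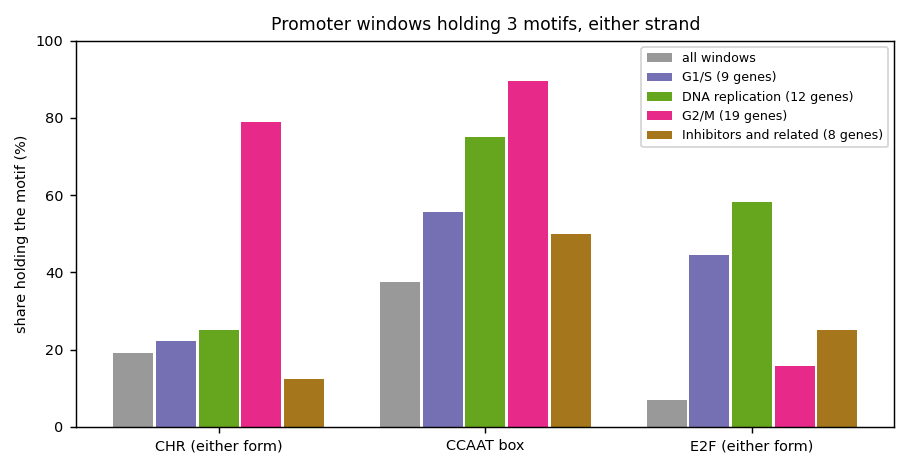
Share of genes of the 4 groups with a promoter window that holds each motif on either strand, in percent, beside the share of all 32851 windows of 300 bases. The CHR bar is highest for G2/M, at 78.9%, and the E2F bar is highest for DNA replication, at 58.3%.

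Among the G1/S genes the D cyclins, which link growth signals to the cycle, did not differ from WT in one direction. Ccnd1 stood at 74.7 FPKM for WT, 51.8 for BM and 50.8 for BEM, 1.44-fold lower in BM (interval 1.39 to 1.496) and 1.47-fold lower in BEM (1.42 to 1.52). Ccnd2 stood at 56.6, 68.4 and 67.5 FPKM, 1.21-fold higher in BM (1.18 to 1.24) and 1.19-fold higher in BEM (1.17 to 1.22). Ccnd3 stood at 25.9, 15.7 and 14.6 FPKM, 1.65-fold lower (1.58 to 1.73) and 1.78-fold lower (1.70 to 1.86). Ccnd1 was thus the most abundant D cyclin in WT, and Ccnd2 in both mutants: the level of Ccnd1 over that of Ccnd2, per length, was 1.32 in WT, 0.757 in BM and 0.751 in BEM. Of their kinase partners, Cdk4 stood at 53.9, 91.2 and 95.5 FPKM, 1.69-fold higher in BM (1.63 to 1.76) and 1.77-fold higher in BEM (1.70 to 1.84). Cdk6 stood at 4.13, 4.03 and 4.23 FPKM, and its intervals held 1 in both mutants (ratios of 1.02 either way). It was the only gene of the 60 whose WT level lay between those of BM and BEM, and its log2 ratio in BM, -0.03, was 0.05 under median-of-ratios scaling and 0.06 under upper-quartile scaling.

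The E cyclins, which start DNA replication with Cdk2, went in opposite directions. Ccne1 stood at 15.998 FPKM for WT, 7.64 for BM and 7.65 for BEM, 2.09-fold lower in BM (1.86 to 2.36) and 2.09-fold lower in BEM (1.87 to 2.34), and was the 1 measured G1/S gene past the lower threshold. On the log2(FPKM + 0.5) scale it fell short of that threshold under both other scalings tried, at -0.94 and -0.93 in BM and -0.94 and -0.92 in BEM. Ccne2 stood at 1.08, 1.81 and 2.05 FPKM, 1.68-fold higher (1.26 to 2.25) and 1.91-fold higher (1.46 to 2.52). The level of Ccne1 over that of Ccne2 was 14.9 in WT, 4.23 in BM and 3.72 in BEM, so Ccne1 was the more abundant in all 3 libraries. Cdk2 stood at 16.3, 13.3 and 14.04 FPKM, 1.22-fold lower (1.10 to 1.35) and 1.16-fold lower (1.05 to 1.28).

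The E2F factors also split. E2f1 (chr2:154559407-154569892 on GRCm38, minus strand), an activator of S phase genes, stood at 5.21 FPKM for WT, 13.1 for BM and 13.2 for BEM, 2.52-fold higher in BM (2.22 to 2.86) and 2.53-fold higher in BEM (2.24 to 2.87). It was the 1 G1/S gene past the upper threshold. E2f2, another activator, had 114 reads in WT and 43 in each mutant, at 1.08, 0.438 and 0.370 FPKM. It was 2.47-fold lower in BM (1.73 to 3.5997) and 2.93-fold lower in BEM (2.05 to 4.26), opposite to E2f1. Of the atypical E2Fs, which repress E2F targets, E2f7 stood at 0.968, 1.27 and 1.17 FPKM, 1.31-fold higher in BM (1.08 to 1.60), with an interval in BEM that held 1 (1.21-fold, 0.996 to 1.47). E2f8 stood at 3.74, 2.23 and 2.40 FPKM, 1.68-fold lower (1.43 to 1.97) and 1.56-fold lower (1.35 to 1.81).

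**Figure D4:**
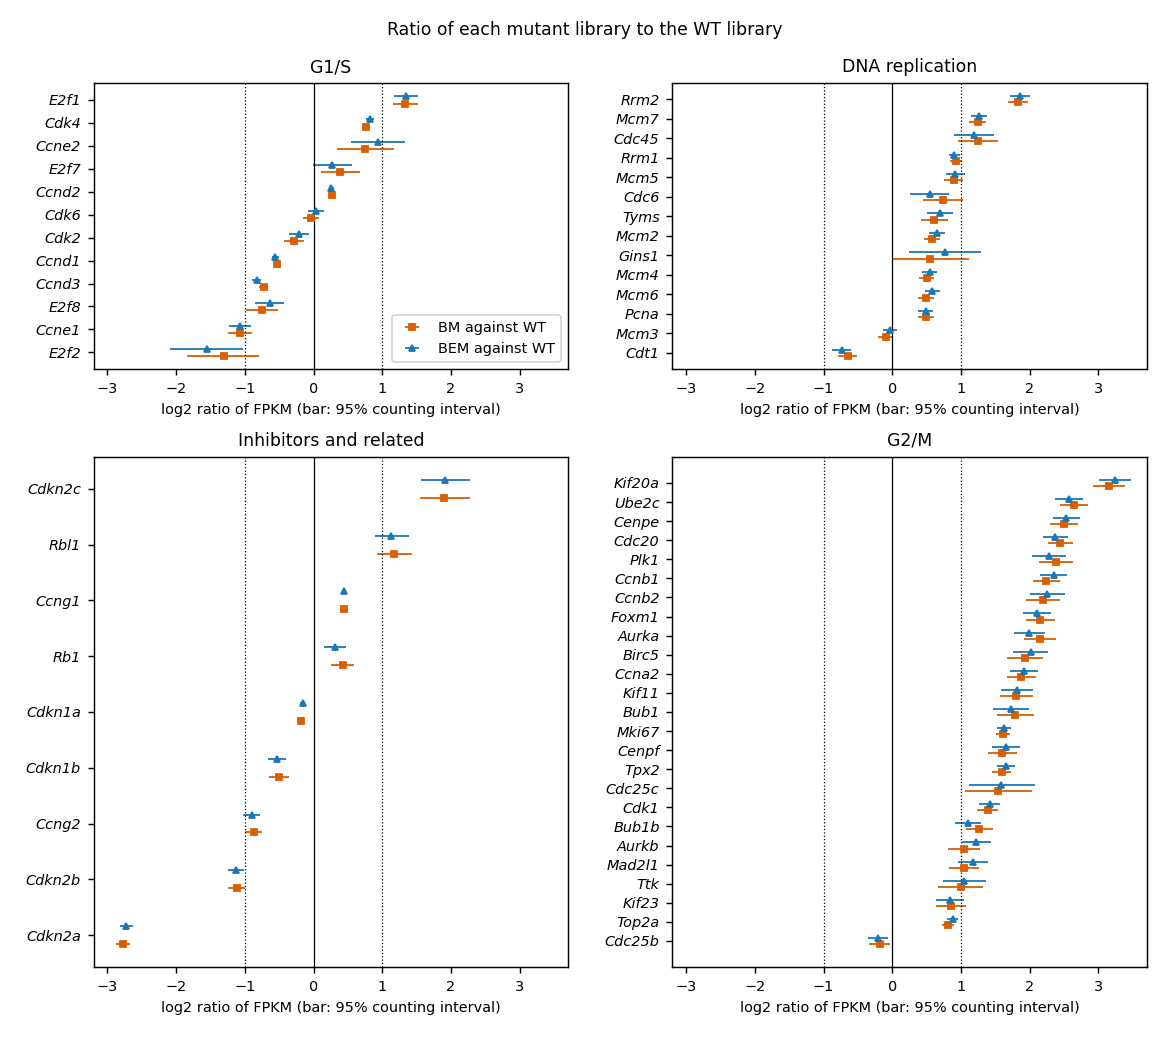
Log2 FPKM ratio to WT of each of the 60 genes in BM and BEM, with 95% counting intervals (Clopper-Pearson) as bars and dotted lines at 2-fold. All G2/M genes but Cdc25b lie above the WT level with intervals clear of it, and Cdkn2a, 6.83-fold lower in BM, is farthest below it.

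Of the DNA replication genes, the ribonucleotide reductase subunits, which make deoxyribonucleotides, were both higher in the mutants. Rrm2, the small subunit, whose level follows S phase, stood at 8.52 FPKM for WT, 30.3 for BM and 30.9 for BEM, 3.56-fold higher in BM (3.22 to 3.93) and 3.63-fold higher in BEM (3.29 to 4.01). Rrm1, the large subunit, stood at 19.4, 36.7 and 36.2 FPKM, 1.89-fold higher (1.78 to 2.01) and 1.87-fold higher (1.77 to 1.99). Rrm1 was the more abundant subunit in all 3 libraries.

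The helicase that opens DNA, made of Mcm2 to Mcm7 with Cdc45 and the GINS complex, was uneven across its subunits. Mcm7 stood at 8.13, 19.3 and 19.5 FPKM, 2.37-fold higher in BM (2.18 to 2.58) and 2.40-fold higher in BEM (2.20 to 2.61). Its span on the genome overlaps the coding genes Cops6 and Ap4m1 and holds microRNA genes. Mcm5 stood at 8.96, 16.7 and 16.9 FPKM, 1.86-fold higher (1.69 to 2.05) and 1.89-fold higher (1.72 to 2.07), and Mcm2 at 6.72, 10.04 and 10.5 FPKM, 1.49-fold and 1.57-fold higher. At the other end, Mcm3 stood at 17.95, 16.8 and 17.5 FPKM, and both its intervals held 1 (1.07-fold lower in BM, 0.990 to 1.15, and 1.02-fold lower in BEM, 0.953 to 1.10). The sign of its log2 ratio flipped under upper-quartile scaling in both mutants. Mcm3 stood above Mcm7 in WT and below it in both mutants. Mcm4 and Mcm6 lay between, 1.42-fold and 1.41-fold higher in BM and 1.46-fold and 1.49-fold higher in BEM. Cdc45, which activates the helicase, stood at 2.86, 6.78 and 6.53 FPKM, 2.37-fold higher (1.93 to 2.91) and 2.28-fold higher (1.87 to 2.79). Gins1, a GINS subunit, had only 49, 67 and 92 reads: its interval held 1 in BM (1.47-fold, 0.999 to 2.16) and excluded it in BEM (1.70-fold, 1.19 to 2.46).

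The licensing factors, which load that helicase in G1, differed from each other. Cdt1 stood at 22.4 FPKM for WT, 14.3 for BM and 13.4 for BEM, 1.57-fold lower in BM (1.42 to 1.73) and 1.66-fold lower in BEM (1.51 to 1.83). It was the only replication gene whose interval lay below the WT level. Cdc6, its partner in loading, stood at 1.47, 2.45 and 2.14 FPKM, 1.67-fold higher (1.37 to 2.04) and 1.46-fold higher (1.20 to 1.78). Pcna, the sliding clamp of the polymerases, stood at 20.4, 28.5 and 28.5 FPKM, 1.40-fold higher in both. Tyms, which makes thymidylate, was 1.53-fold higher in BM and 1.62-fold higher in BEM.

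Every G2/M gene but Cdc25b was higher in both mutants than in WT with an interval that excluded no difference. Such intervals are common in libraries this deep: 80.2% of all measured genes in BM and 80.8% in BEM had an interval that excluded 1 in either direction. The cyclins and kinase of mitotic entry were among them. Ccnb1 stood at 2.81 FPKM for WT, 13.2 for BM and 14.3 for BEM, 4.72-fold higher in BM (4.12 to 5.43) and 5.09-fold higher in BEM (4.46 to 5.84). Ccnb2, the other B cyclin, stood at 4.85, 22.1 and 23.1 FPKM, 4.56-fold higher (3.84 to 5.45) and 4.77-fold higher (4.03 to 5.69). The balance of the B cyclins hardly moved, with Ccnb2 at 1.73 times the level of Ccnb1 in WT, 1.67 in BM and 1.62 in BEM. Ccna2, the cyclin of S phase and G2, stood at 2.84, 10.4 and 10.7 FPKM, 3.67-fold higher (3.19 to 4.25) and 3.78-fold higher (3.29 to 4.36).

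Cdk1, the mitotic kinase that these cyclins switch on, was 2.61-fold higher in BM (2.35 to 2.92) and 2.68-fold higher in BEM (2.41 to 2.98), from 6.34 FPKM in WT. Cdk2 was 2.57 times as abundant as Cdk1 in WT and 0.804 and 0.827 times as abundant in BM and BEM, so their order was the opposite in the mutants. The CDC25 phosphatases, which remove the brake on Cdk1, were split. Cdc25c was 2.89-fold higher in BM and 3.01-fold higher in BEM, from 1.20 FPKM in WT. Cdc25b stood at 9.84, 8.66 and 8.49 FPKM, 1.14-fold lower in BM (1.02 to 1.26) and 1.16-fold lower in BEM (1.05 to 1.28), and its promoter window holds a CHR form.

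The kinases of the spindle and their partner were higher as well. Plk1, a kinase of mitotic entry and exit, stood at 3.52, 18.4 and 17.1 FPKM, 5.21-fold higher in BM (4.41 to 6.19) and 4.86-fold higher in BEM (4.11 to 5.76). Aurka, the kinase of spindle poles, stood at 3.61, 15.95 and 14.4 FPKM, 4.42-fold higher (3.78 to 5.19) and 3.98-fold higher (3.41 to 4.67). Tpx2, which brings Aurka to microtubules, was 3.01-fold and 3.14-fold higher. The partners in the chromosomal passenger complex differed in the size of their ratios. Birc5, its targeting subunit, stood at 2.13, 8.10 and 8.58 FPKM, 3.81-fold and 4.03-fold higher. Aurkb, its kinase, was 2.06-fold higher in BM (1.76 to 2.41) and 2.33-fold higher in BEM (2.01 to 2.71).

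Motors and kinetochore proteins included the largest ratio of all 60 genes. Kif20a, a motor of the central spindle needed for cytokinesis, stood at 2.03 FPKM for WT, 17.98 for BM and 19.1 for BEM, from 166, 1373 and 1725 reads. It was 8.86-fold higher in BM (7.54 to 10.5) and 9.41-fold higher in BEM (8.02 to 11.1). Kif23, another motor of the central spindle, was 1.81-fold higher (1.56 to 2.10) and 1.79-fold higher (1.55 to 2.06), at 3.94, 7.13 and 7.04 FPKM, so the motors were not alike. Kif11, the motor that pushes the poles apart, stood at 1.77, 6.19 and 6.21 FPKM, 3.495-fold and 3.51-fold higher. Cenpe, the kinetochore motor, stood at 1.26, 7.14 and 7.32 FPKM, 5.64-fold higher (4.90 to 6.51) and 5.79-fold higher (5.04 to 6.67), and Cenpf, a large kinetochore protein, was 3.03-fold and 3.15-fold higher.

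The spindle checkpoint genes hold back anaphase until chromosomes are attached. Bub1 was 3.46-fold higher in BM and 3.30-fold higher in BEM, Bub1b 2.41-fold and 2.15-fold, Mad2l1 2.06-fold and 2.26-fold, followed by Ttk, the kinase that starts the checkpoint signal, 1.99-fold and 2.07-fold higher, at 1.13, 2.25 and 2.34 FPKM. Cdc20, their target and the activator of the anaphase-promoting complex, stood at 7.18 FPKM for WT, 39.1 for BM and 37.1 for BEM, 5.44-fold higher in BM (4.80 to 6.20) and 5.17-fold higher in BEM (4.56 to 5.88). Ube2c, the ubiquitin carrier of that complex, stood at 4.09, 25.4 and 24.3 FPKM, 6.22-fold higher (5.40 to 7.19) and 5.95-fold higher (5.17 to 6.87). The intervals of Cdc20 and Ube2c lay above those of all 4 checkpoint genes in both mutants. Both promoters hold a CHR in the bases printed with the motif counts.

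Foxm1, the factor that turns on these genes, stood at 1.90, 8.45 and 8.18 FPKM, 4.44-fold higher in BM (3.85 to 5.14) and 4.30-fold higher in BEM (3.73 to 4.97). Mki67, the protein of chromosome surfaces used as a mark of dividing cells, was 3.05-fold higher (2.84 to 3.28) and 3.08-fold higher (2.88 to 3.31), from 4.65 FPKM in WT. Top2a, which untangles DNA before division, was the most abundant G2/M gene but Cdc25b in WT at 9.32 FPKM with 16.3 in BM and 17.1 in BEM. Its ratios were among the smallest, 1.75-fold (1.65 to 1.86) and 1.84-fold (1.74 to 1.95) higher.

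Among the inhibitors, the Ink4 family, which blocks Cdk4 and Cdk6, held the largest differences of the 9 genes, in both directions. Cdkn2a (chr4:89274471-89294653 on GRCm38, minus strand), which encodes p16Ink4a and p19Arf from overlapping transcripts, stood at 254 FPKM for WT, 37.2 for BM and 38.4 for BEM, from 6422, 877 and 1072 reads. It was 6.83-fold lower in BM (6.37 to 7.34) and 6.62-fold lower in BEM (6.20 to 7.07), and the values per gene do not tell its products apart. Cdkn2b (chr4:89306299-89311039, minus strand), which encodes p15Ink4b next to it, stood at 60.5, 27.8 and 27.7 FPKM, 2.18-fold lower (1.999 to 2.37) and 2.19-fold lower (2.02 to 2.37). Cdkn2c, which encodes p18Ink4c, went the other way, at 1.45, 5.42 and 5.47 FPKM, 3.74-fold higher (2.92 to 4.82) and 3.77-fold higher (2.96 to 4.84). Cdkn2a was 175 times as abundant as Cdkn2c in WT and 6.86 and 7.02 times as abundant in the mutants, where it still led the family.

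Of the Cip/Kip inhibitors, which act on Cdk2, Cdkn1a and Cdkn1b are among the 60 genes. Cdkn1a, which encodes p21 and answers to p53, was the most abundant of the 60 genes in WT, at 269.7 FPKM with 239 in BM and 241 in BEM, 1.13-fold lower (1.10 to 1.16) and 1.12-fold lower (1.09 to 1.15). Cdkn1b, which encodes p27 and sets the time of cell cycle exit in the mouse cochlea, stood at 10.6, 7.45 and 7.30 FPKM, 1.42-fold lower (1.29 to 1.56) and 1.45-fold lower (1.32 to 1.59). Of the cyclins G, Ccng1, a p53 target, stood at 199, 271 and 271 FPKM, 1.36-fold higher in both mutants, and Ccng2, which is linked to cell cycle arrest, at 12.7, 6.96 and 6.83 FPKM, 1.83-fold lower (1.68 to 1.9999) and 1.86-fold lower (1.72 to 2.03). The p53 targets Cdkn1a and Ccng1 thus went in opposite directions by small amounts. Of the retinoblastoma family, Rb1 stood at 4.13, 5.54 and 5.13 FPKM, 1.34-fold (1.19 to 1.504) and 1.24-fold (1.11 to 1.39) higher, and Rbl1, which encodes p107, itself an E2F target, at 1.49, 3.36 and 3.26 FPKM, 2.26-fold (1.90 to 2.70) and 2.19-fold (1.85 to 2.61) higher.

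The mutant libraries, set against each other, were far closer to one another than either was to WT. Each line gave 1 library, so the part of genotype, clone and culture in this closeness was not tested. None of the 59 measured genes was 2-fold apart between BEM and BM, where 0.458% of all measured genes were higher and 0.326% lower. The largest ratio among them was that of Gins1, 1.16-fold higher in BEM, and 59 of the 60 lay on the same side of WT in both mutants. The interval of the ratio excluded 1 for 5 of 59 genes, against 10.6% of all measured genes. These were Aurkb (1.13-fold higher in BEM, 1.00 to 1.28), Bub1b (1.12-fold lower), Aurka (1.11-fold lower), Ccnd3 (1.07-fold lower) and Cdk4 (1.05-fold higher). Against counting noise, the chi-square of the reads of BEM and BM averaged 1.31 per gene (1 degree of freedom) over the measured members and 1.69 over all measured genes. That of BM and WT averaged 342 over the members and 402 over all measured genes.

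**Figure D5:**
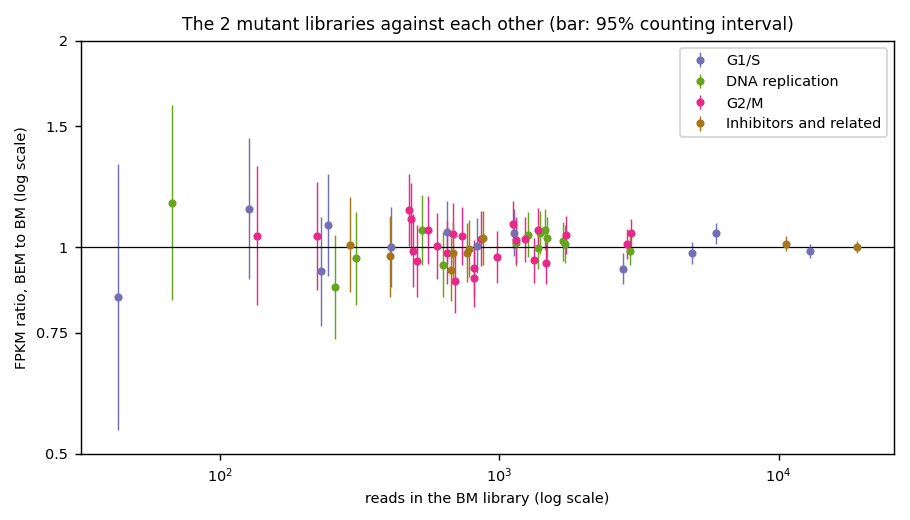
FPKM ratio of BEM to BM (log axis) for each of the 60 genes against its reads in BM (log axis), with 95% counting intervals as bars. The measured gene farthest from no difference is Gins1, at 1.16-fold, and the widest intervals belong to the genes with fewest reads, such as E2f2 with 43.

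Other genes of the same machinery were counted in the same way, beside all-gene shares of 10.5% (BM) and 10.7% (BEM) higher and 15.3% lower in each. These lists were chosen with results of these data known. Of 27 measured genes of the spindle, cytokinesis and condensin, 17 were higher in each mutant and 0 lower, with median log2 ratios of 1.17 and 1.25, among them Anln, a scaffold of the contractile ring (5.16-fold higher in BM), Prc1, a microtubule bundler (4.17-fold), and Tacc3, of the spindle (4.07-fold). Of 20 genes of the centromere and kinetochore, 11 were higher in BM and 12 in BEM, with medians of 1.11 and 1.14, among them Ndc80 (3.44-fold), which holds microtubules, and Cenpa (3.20-fold), the centromere histone. Only Zwint was lower in this list, at 63.0 FPKM for WT, 29.7 for BM and 30.2 for BEM. Zwint, which anchors checkpoint proteins at the kinetochore, was chosen after its values were seen.

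Lists of other steps had few genes past 2-fold. Over all measured genes 10.5% were higher in BM, 10.7% in BEM and 15.3% lower in each, with median log2 ratios of -0.08 and -0.07. Of 17 origin recognition and loading genes, 2 were higher in BM (Dbf4, 2.26-fold, and Orc1, 2.37-fold) and 0 in BEM, where their FPKM ratios were 2.22-fold and 2.13-fold, with medians of 0.03 and 0.06. Of 23 polymerase and clamp loader genes 1 was higher and 1 lower in each mutant, with a median of 0.23 in both. Here Pold2, a subunit of polymerase delta, was the lower one, at 29.0, 7.68 and 8.39 FPKM, 3.78-fold lower in BM, and Pole, the catalytic subunit of polymerase epsilon, was 2.71-fold higher. Of 11 nucleotide supply genes 1 was lower in BM (Dut, 2.16-fold) and 0 in BEM. Of 15 genes of the anaphase-promoting complex and its regulators only Fbxo5, an inhibitor of the complex, was past 2-fold (2.55-fold higher), and the list, which holds the core subunits, had a median of 0.09 in BM and 0.05 in BEM. In the DREAM and MuvB list of 12 genes, with medians of -0.12 and -0.11, Mybl2, which encodes B-Myb, was 2.58-fold higher in BM, and Rbl2, which encodes p130, was 2.03-fold lower as an FPKM ratio and short of the threshold. None of 12 other E2F and cyclin-CDK genes was past 2-fold, and Skp2, which targets p27 for destruction, was 1.92-fold lower.

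Of the other CDK inhibitors, Cdkn1c, which encodes p57, was the one with the largest ratio, at 124 FPKM for WT, 14.7 for BM and 13.1 for BEM, 8.45-fold and 9.46-fold lower. Cdkn2d, whose product p19Ink4d keeps hair cells out of the cycle in the mouse, was 1.71-fold and 2.12-fold lower, at 16.1, 9.43 and 7.60 FPKM. Cdkn3, a phosphatase of Cdk2 and Cdk1, was 3.79-fold higher in BM and 4.04-fold higher in BEM, at 0.900, 3.41 and 3.64 FPKM. Of 15 targets of p53, 1 was higher and 4 lower in each mutant, with medians of -0.16 and -0.19. The shares over all measured genes were 10.5% (BM) and 10.7% (BEM) higher and 15.3% lower in each. Gadd45a, a growth arrest gene, was 5.19-fold lower in BM, at 83.4, 16.1 and 17.0 FPKM, and Pmaip1, a cell death gene, was 5.18-fold higher, so the targets of p53 did not go one way.

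The authors' deposited tables gave an FDR under 0.05 for 1 of the 60 genes, Kif20a, in each comparison with WT (0.0174 for BM and 0.0147 for BEM), against 7.15% and 7.3% of all measured genes. An unadjusted p under 0.05 stood there for 16 and 15 of the 60, against 12.3% and 12.4% of all measured genes. Of the 60 genes, 29 overlap another annotated gene on the genome, 16 of them another coding gene (Kif20a with Cdc23 and Ube2c with Tnnc2, for example), and 5 have a pseudogene of their name (Ccnd3, Pcna, Tyms, Ccnb1 and Ccnb2). How the counting treated strand and reads with several positions was not stated in any source used, so the values of these genes are less certain.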

How the data were processed

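The deposited expression values were FPKM, per the file headers, in 3 tables of 47725 genes, 1 for each pair of libraries. A further 4 lines in every table were left out. The submitters' processing notes name TopHat2, HTSeq, edgeR and the build GRCm38 without versions. The authors' p-value and FDR were deposited beside them, per the file headers, as was the authors' log2 ratio. No source used says how p-values came from single libraries, so only the authors' own calls are quoted.

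The tables hold no counts, so in place of the planned ratio of counts the analysis used the difference of log2(FPKM + 0.5), with no further scaling. Genes averaging 1 FPKM or more across the 3 libraries count as measured (12875 genes), and calls were made at 2-fold. Folds of single genes and ratios between genes are of FPKM without the pseudocount. FPKM are reads divided by length and library total, so whole reads (to within 0.0001) could be recovered for all 60 members and for 12860 of the measured genes. For 46 members this was at the GENCODE M21 exon length and for 14 at the shortest other length that gave whole reads, so their reads are less certain. These reads gave the 95% intervals, which cover counting error only. PCR reads without molecular identifiers are not independent molecules, so the intervals may be too narrow even for that error. The steps were tested on simulated data. Annotation was found for 47306 gene identifiers.

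The members and lists were chosen with earlier results of these data known. Values in all 3 libraries are given for every G1/S gene and inhibitor, and for the 7 replication and 12 G2/M genes with the largest mean absolute log2 ratio to WT and the 3 with the smallest. At most 4 genes of each further list are named by that measure. Outside this rule, and with their values seen, Zwint, Atoh1, Pou4f3, Spi1, Itgam, Snap25, Pdgfra and Col3a1 are named. They are exceptions in their lists, checks of the labelled cell type or markers listed at or near 0. Python 3.11.15, NumPy 2.4.6, pandas 2.3.3, SciPy 1.17.1 and matplotlib 3.10.9 were used. Alternatives varied the pseudocount, filter, threshold, scaling and read lengths.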

Additional observations from a re-analysis of the deposited data

How the results depend on the processing

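No paired analysis was possible because each line has 1 library. The count of genes 2-fold higher than WT was 24 in each mutant. It was 13 in both at a mean of at least 10 FPKM, which tests fewer genes. It was 9 in BM and 11 in BEM with a pseudocount of 5, and 8 and 7 at 4-fold. At 1.5-fold it was 33 in BM and 37 in BEM. The count of lower genes, 3 in each, was 7 in BM and 6 in BEM at 1.5-fold and 1 in both at 4-fold. It was 1 in BM and 2 in BEM with a pseudocount of 5. The G2/M median log2 ratio was 2.06 and 2.13 at 10 FPKM and 0.93 in both with a pseudocount of 5, and the replication median in BM was 0.37 with that pseudocount. The G1/S median, near 0, was -0.15 in BM and -0.087 in BEM with no filter, -0.28 and -0.21 at 10 FPKM, and 0.12 in BM over genes at their annotated length, an alternative chosen after seeing the data. The inhibitor median was -0.091 and -0.085 under median-of-ratios scaling, -0.081 and -0.063 under upper-quartile scaling and -0.64 in both at 10 FPKM. It reversed to 0.38 and 0.28 over genes at their annotated length, which leaves out Cdkn1a and Cdkn2b. Where no reason is named, the cause was not tested. Some log2 ratios to WT that lie within counting error of 0 changed sign under the scalings. Cdk6 in BM went from -0.03 to 0.05 and 0.06, Mcm3 in BEM from -0.03 to 0.04 and 0.06, and Mcm3 in BM from -0.09 to 0.0012 under upper-quartile scaling alone. The G1/S median in BM went from -0.03 to 0.05 and 0.06. Both scalings took Ccne1 out of the lower genes, which left 2 in each mutant, and gave 26 higher genes. A pseudocount of 5 moved 62 of 135 named log2 ratios by more than 1/2 of the width of their counting interval. The scaling factors alone shift a log2 ratio by 0.086 or 0.097 in BM and 0.076 or 0.097 in BEM, and low genes shift less because of the pseudocount. Low counts limit Gins1 (49 reads in WT), Cdc25c (50), Ccne2 (81) and Cdkn2c (84), and E2f2 (43 in each mutant).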

Other observations

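Around Cdkn2a on chromosome 4 the coding genes with reads were not lower together. Mtap, which acts in methionine salvage, stood at 21.4 FPKM for WT, 20.9 for BM and 20.6 for BEM. Its lowest coordinate is 137 kb below the lowest coordinate of Cdkn2a. Klhl9, a ubiquitin ligase adaptor, stood at 7.79, 11.2 and 11.4 FPKM, and Hacd4, an enzyme of fatty acid elongation, at 1.11, 6.06 and 6.40 FPKM. Cdkn2b, whose lowest coordinate is 32 kb above that of Cdkn2a, was thus the only one of these neighbours past 2-fold in the lower direction. Of the 60 genes 10 lie on chromosome 2, 6 on chromosome 4 and 6 on chromosome 7.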
